A study of Mus musculus with 10 samples.

Results

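The genes described here are 35 mouse genes of the lysosome, of the V-ATPase that acidifies it, of autophagy and of mitophagy, together with the transcription factors of the TFEB family that act on them. They were chosen by symbol for these known roles, at a time when earlier results of these data were known. All 35 symbols were found among the 56832 rows of the deposited count table, every one had counts in all 10 libraries, and all 35 were among the 12115 genes with enough counts to be tested. The GFP+ libraries hold sorted cells that the labels call border zone cardiomyocytes, and the GFP− libraries hold sorted cells called remote zone cardiomyocytes. Both came from hearts of reporter mice of the genotype Sprr1a-GFP, sampled on day 5 after a myocardial infarction at an age of 12 weeks. A GFP+ and a GFP− library were made from each of 5 mice, and the comparison is paired by animal. The tag Hetz stands in all titles. The titles of the GFP+ libraries name DAPI-negative and DAPI-positive sorts, and those of the GFP− libraries name the DAPI-negative sort alone, so this feature of the sort cannot be told apart from the group. Mice 17C1 and 17C2 have identifiers of a 17C series and mice 21A4, 21A5 and 21A7 of a 21A series, and the wording of the titles differs between them.

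Lysosomes are acidic compartments in which cathepsins and other hydrolases break down proteins, lipids and glycans. The V-ATPase pumps protons into them: its V1 sector hydrolyses ATP and its V0 sector carries the protons through the membrane. In autophagy a double membrane, decorated with LC3 and GABARAP proteins, encloses cytoplasm or organelles and fuses with the lysosome, and in mitophagy the cargo is a mitochondrion. Cardiomyocytes are long-lived and rich in mitochondria, and inherited loss of Lamp2 or of Gaa causes heart muscle disease in humans. Macrophages, which enter the heart after an infarction, are also rich in lysosomes, so several of these genes are abundant in both cell types.

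TFEB, TFE3 and MITF bind a short E-box, and promoters of lysosomal genes are known for an extended form of it. Promoter sequences from 250 bases before to 50 bases after the gene start were taken from RefSeq (GRCm38.p6) and matched 28 of the 35 genes. The core CACGTG was present in 10 of these 28 promoters (35.7%), against 2187 of all 27025 promoters of the same length (8.09%). The longer form TCACGTGA, which contains the core, was present in 5 of 28 (17.9%), against 304 of 27025 (1.12%). Both are palindromes, so a match on either strand is the same match, and a match describes the letters and not a bound site. The 5 promoters with the longer form are shown because they are the ones in which the genes share a sequence that their choice did not use. They belong to a calcium channel of the lysosome, a pair of cathepsins and a pair of V-ATPase subunits. Each line reads 5′ to 3′ on the strand of the gene, with the longer form in capitals.
Mcoln1 (chr8:3500447-3500506, plus strand, capitals beginning 46 bases before the gene start): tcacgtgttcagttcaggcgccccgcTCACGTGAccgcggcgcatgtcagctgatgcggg
Ctsa (chr2:164833734-164833793, plus strand, 13 bases before): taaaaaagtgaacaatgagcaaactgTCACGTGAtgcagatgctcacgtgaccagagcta
Ctsd (chr7:142387893-142387952, minus strand, 99 bases before): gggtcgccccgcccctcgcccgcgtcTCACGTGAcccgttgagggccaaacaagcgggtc
Atp6v0d1 (chr8:105566035-105566094, minus strand, 4 bases before): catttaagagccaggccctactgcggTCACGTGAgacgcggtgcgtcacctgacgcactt
Atp6v1a (chr16:44139358-44139417, minus strand, 132 bases before): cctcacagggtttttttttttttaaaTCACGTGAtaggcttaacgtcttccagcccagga
The stretch of Mcoln1 also holds the core near its start, in lower case. The promoter of Ctsa holds the longer form again further along the printed stretch, in lower case. The genes with the core alone were Atg5, Atg7, Ctsl, Gaa and Lamp1. The log2 fold changes of the 5 genes with the longer form, GFP+ over GFP−, were not alike: 0.86 for Mcoln1, 0.29 for Ctsa, 0.10 for Atp6v1a, −0.044 for Atp6v0d1 and −0.14 for Ctsd.

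Total counts lay between 12244373 and 38879965 per library. Sprr1a, which names the reporter, had 1452 to 6903 counts in GFP+ and 10 to 406 in GFP− libraries and followed the labels in every mouse. All 15 cardiomyocyte markers were detected in every library. Their summed level was 24060 and 31890 CPM (counts scaled to a common library size) in the GFP+ libraries of 17C1 and 17C2, against 52140 and 59930 CPM in the GFP− libraries. In 21A4, 21A5 and 21A7 it was 48970, 47140 and 12730 CPM in GFP+, against 38380, 23310 and 4811 CPM in GFP− libraries. The 15 macrophage markers summed to 47.7 and 24.8 CPM in the GFP+ libraries of 17C1 and 17C2 (3 markers at 0 in each), against 38.6 (0 at 0) and 31.7 CPM (1 at 0) in the GFP− libraries. In 21A4, 21A5 and 21A7 they summed to 86.4, 109.4 and 378.1 CPM in GFP+, against 372.4, 803.7 and 864.8 CPM in GFP− libraries, with 0 markers at 0. Fibroblast markers followed the same division, with 264 and 315 CPM in GFP+ against 130.3 and 283.1 CPM in GFP− libraries of the 17C mice, and 1756 to 5123 CPM in GFP+ against 6507 to 12060 CPM in GFP− libraries of the 21A mice. Both marker sums were thus higher in 21A than in 17C libraries, and within each 21A mouse lower in the GFP+ library. In bulk samples, fewer cells of a type and less RNA per cell cannot be told apart.

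**Figure D1:**
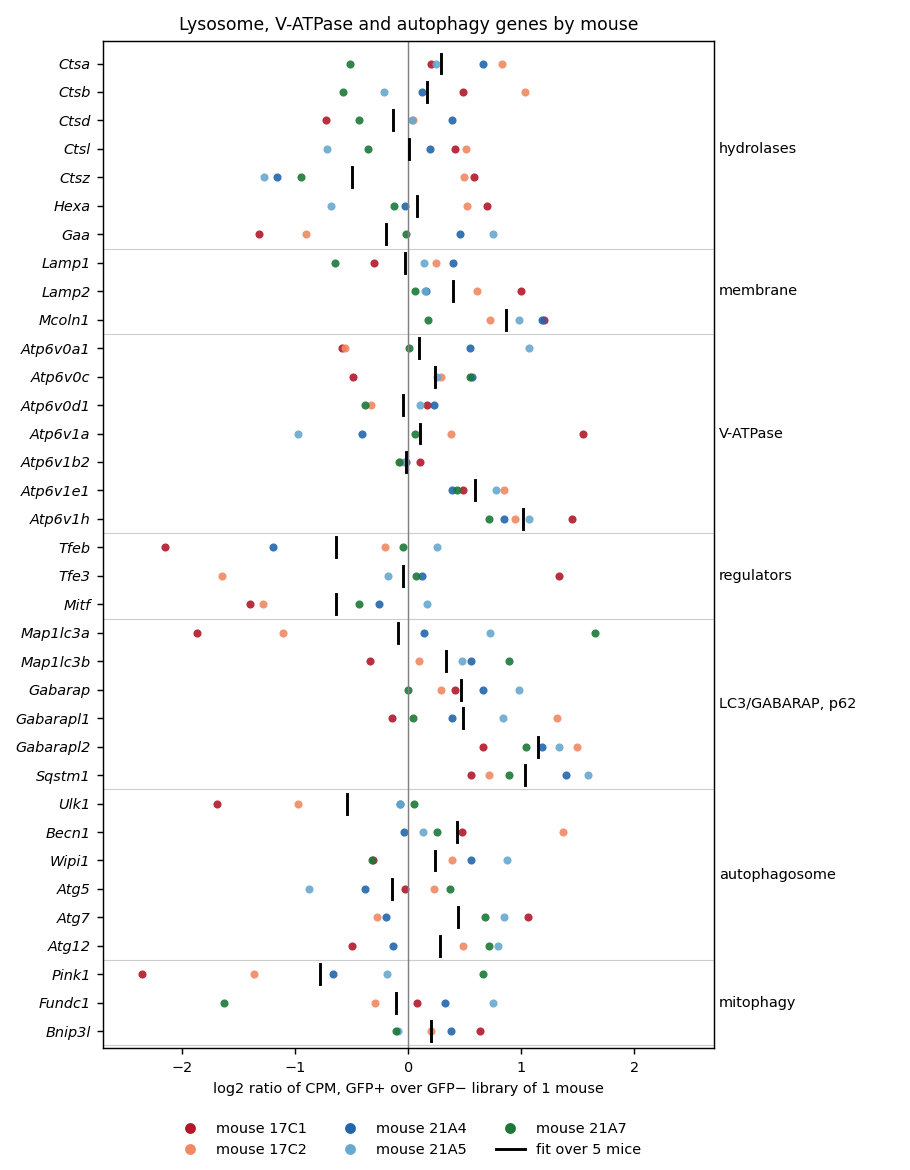
Log2 ratio of CPM of the GFP+ over the GFP− library of each mouse (x axis) for the 35 genes, grouped by role (y axis), with a colour for each mouse and a black bar for the fold change fitted over the 5 mice. Lamp2, Mcoln1, Atp6v1e1, Atp6v1h, Gabarapl2 and Sqstm1 have all 5 points right of 0. For Ctsz, Gaa, Map1lc3a, Ulk1 and Pink1 the points of 17C1 and 17C2 lie apart from most of those of the 21A mice.

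None of the 35 genes passed an adjusted p of 0.05 in GFP+ against GFP− libraries over the 5 mice (edgeR quasi-likelihood test with the mouse as a block, Benjamini-Hochberg over all tested genes), where 104 of 12115 genes did (0.858%). Without the mouse block 0 of 35 passed too, where 10 of all genes did (0.0825%). At an unadjusted p under 0.05, 5 of the 35 genes were higher in GFP+ libraries, against 7.74% of all genes, and 0 were lower, against 7.59%. The 5 were Gabarapl2, Atp6v1h, Sqstm1, Mcoln1 and Atp6v1e1. DESeq2 called 3 of the 35 (Gabarapl2, Atp6v1h and Sqstm1, all higher). Limma voom with quality weights called 5, which were those 3 and Mcoln1 as higher and Ctsz as lower, but these tools also called 895 and 1163 of all genes. Fold changes were above 0 for 21 genes and below 0 for 14, with a median of 0.10 on the log2 scale, against −0.038 for all tested genes. In 6 genes the GFP+ library was the higher one in 5 of 5 mice, against 9.14% of all genes, and in 0 genes it was the lower one in all mice, against 8.02%. Atp6v1h alone had every GFP+ library above every GFP− library in CPM (1.54% of all genes), and 0 genes had every GFP+ library below (0.916% of all genes). Without mouse 21A7, whose GFP+ library had 91.2% of its counts from mitochondrially encoded genes against 9.20% in its GFP− library, 0 of 35 passed and their median was 0.15. With library totals in place of TMM scaling the median of all genes moved to −1.15 and that of the 35 genes to −0.96, and Lamp2, Mcoln1, Atp6v1e1, Atp6v1h and Sqstm1 then stood between −0.67 and −0.011, below 0 but above the median of all genes.

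Over the 5 mice the genes of the autophagosome coat and its cargo receptor had the highest median of the role groups. Of 6 genes 0 passed, 5 had fold changes above 0, and the median was 0.48 against −0.038 for all tested genes. Fitted in the 17C mice alone it was 0.475, below those of the membrane genes (0.82) and the hydrolases (0.52), and in the 21A mice alone it was 0.75. Within mice the median of the 6 genes was 0.13, 0.50, 0.61, 0.91 and 0.89 in 17C1, 17C2, 21A4, 21A5 and 21A7, and the same order of mice is used for every set of 5 values that follows. Gabarapl2, a GABARAP-type protein that is attached to autophagosome membranes, had 31.1, 26.5, 18, 18.8 and 9.18 CPM in GFP+ libraries, against 19.6, 9.37, 7.90, 7.43 and 4.41 CPM in GFP− libraries. Its GFP+ library was the higher one in each mouse, but the groups overlapped, since 21A7 was low and 17C1 high in both. The log2 fold change was 1.15 ± 0.22 (SE), with an edgeR adjusted p of 0.0576 that missed the threshold. It passed without mouse 17C1 (1.28, edgeR adjusted p = 0.0429), where 173 of all genes did. It also passed when genes under 5 CPM in 5 libraries were left out (1.11, edgeR adjusted p = 0.0402), where 122 of all genes did. Unpaired, it was far from passing (1.09, edgeR adjusted p = 0.549), in a fit where 10 of all genes passed.

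Sqstm1 encodes p62, which binds ubiquitin-tagged cargo and LC3 and is itself degraded by autophagy. It had 470.0, 382, 337, 444 and 169 CPM in GFP+ libraries, against 321, 233, 128, 147 and 91.1 CPM in GFP− libraries. Every mouse had more in GFP+ cells, by a log2 ratio of 0.55 in 17C1 to 1.59 in 21A5, although the GFP+ library of 21A7 lay below the GFP− libraries of the 17C mice. The fold change was 1.03 ± 0.27 (edgeR adjusted p = 0.1375). By the GENCODE M21 annotation 17.3% of its exon sequence overlaps Mrnip on the other strand, and since the library kit does not mark strand its counts may include reads of that gene. Map1lc3a, an LC3 gene, went opposite ways in the 2 series. It had 58.4, 96.9, 98.2, 106.1 and 43.9 CPM in GFP+ libraries, against 214, 209, 89.4, 64.1 and 13.9 CPM in GFP− libraries. The GFP− libraries of the 17C mice were the highest of all 10 and that of 21A7 was the lowest, and the fold change over 5 mice was −0.088 ± 0.51 (edgeR adjusted p = 0.956). Map1lc3b, Gabarap and Gabarapl1, the remaining LC3 and GABARAP genes, had fold changes of 0.34, 0.47 and 0.49, with ratios per mouse of −0.34 to 1.32. Each of the 3 was above 0 in 4 of 5 mice.

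**Figure D2:**
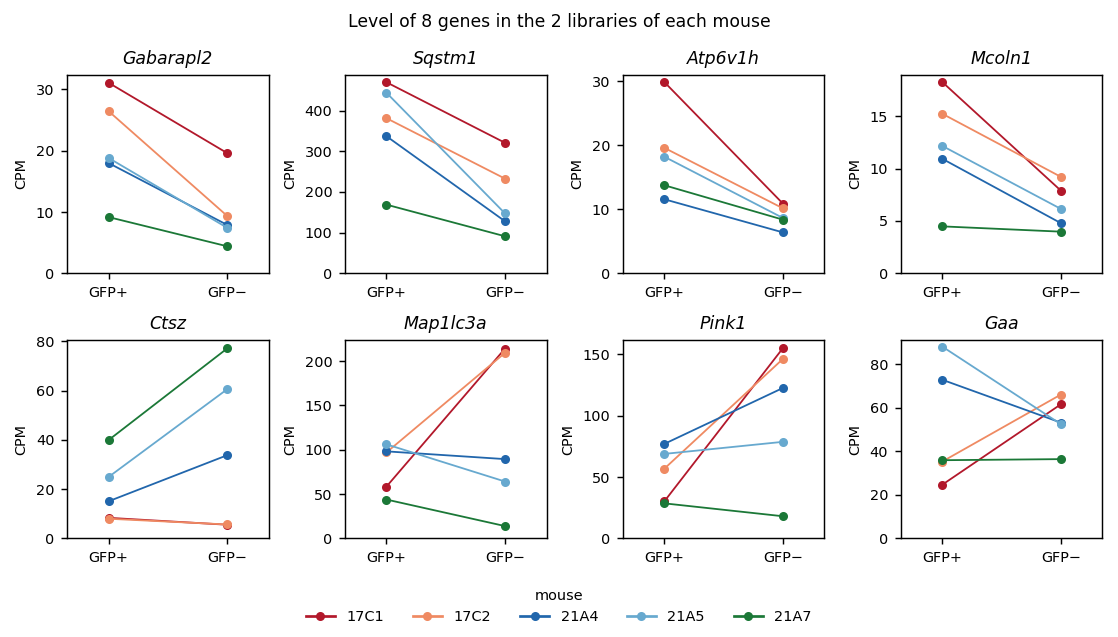
CPM (y axis, linear, from 0) of 8 genes in the GFP+ (left) and GFP− (right) library of each mouse, with a line joining the 2 libraries of a mouse. All 5 lines of Gabarapl2, Sqstm1, Atp6v1h and Mcoln1 are higher on the GFP+ side, while the lines of Ctsz, Map1lc3a, Pink1 and Gaa run in both directions.

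Among the 7 V-ATPase subunits, 0 passed, 5 fold changes were above 0 and the median was 0.10. The fold changes of the subunits ran from −0.044 to 1.01. Atp6v1h, the H subunit of the V1 sector, had 29.9, 19.6, 11.6, 18.2 and 13.8 CPM in GFP+ libraries, against 10.9, 10.2, 6.39, 8.65 and 8.39 CPM in GFP− libraries. The lowest GFP+ library, that of 21A4, stood above the highest GFP− library, that of 17C1. The fold change was 1.01 ± 0.22 with an edgeR adjusted p of 0.0792. It passed with every gene kept whatever its counts (0.98, edgeR adjusted p = 0.0497), where 818 of all genes did. Atp6v1e1, a subunit of the V1 stalk, had 36.2, 38.1, 26.5, 34.5 and 19.5 CPM in GFP+ libraries, against 25.8, 21.2, 20.3, 20.1 and 14.5 CPM in GFP− libraries. Again each mouse had more in GFP+ cells, and the groups overlapped through 21A7 alone, whose GFP+ library lay below 4 GFP− libraries. Its fold change was 0.585 ± 0.19 (edgeR adjusted p = 0.206).

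The other 5 pump subunits did not move in 1 direction across mice. Atp6v1a, the catalytic subunit, had log2 ratios of 1.54 and 0.38 in the 17C mice and −0.41, −0.98 and 0.062 in the 21A mice. Atp6v1b2, which pairs with it in the ATP-hydrolysing ring, had the narrowest spread of the 35 genes, with ratios between −0.085 and 0.10, means of 26.6 ± 4.51 CPM in GFP+ and 26.95 ± 4.02 CPM in GFP− libraries (SD, n = 5 each) and a fold change of −0.024 ± 0.18. In the V0 sector, Atp6v0a1, Atp6v0c and Atp6v0d1 had fold changes of 0.091, 0.24 and −0.044. Atp6v0a1 was lower in GFP+ cells of both 17C mice (−0.59 and −0.56) and higher in 21A4 and 21A5 (0.54 and 1.07). Atp6v0c forms the proton-carrying ring and has annotated pseudogene copies, so its counts are uncertain.

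Of 3 lysosomal membrane genes 0 passed and the median was 0.39. Mcoln1, a channel that releases calcium from the lysosome and whose promoter is shown above, had 18.3, 15.2, 10.9, 12.2 and 4.48 CPM in GFP+ libraries, against 7.90, 9.21, 4.79, 6.15 and 3.98 CPM in GFP− libraries. It was higher in GFP+ cells of every mouse, with the smallest difference in 21A7, where both libraries were lowest. The fold change was 0.86 ± 0.26 (edgeR adjusted p = 0.1745). Lamp2, a membrane protein needed for fusion of autophagosomes with lysosomes, had 124.7, 89.1, 41.95, 60.2 and 54.7 CPM in GFP+ libraries, against 62.4, 58.3, 37.5, 54.5 and 52.7 CPM in GFP− libraries. All 5 mice had more in GFP+ cells, but the log2 ratio was 0.9985 and 0.61 in the 17C mice and at most 0.16 in the 21A mice. Over 5 mice its fold change was 0.39 ± 0.23 (edgeR adjusted p = 0.466). Lamp1, its close relative, averaged 111.2 ± 31.6 CPM in GFP+ and 110.9 ± 15.2 CPM in GFP− libraries (SD, n = 5 each), with ratios between −0.65 and 0.40 and a fold change of −0.034.

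The 7 hydrolases had a median fold change of 0.0058, and 0 passed. Their median within mice was 0.41 and 0.51 in the 17C mice and 0.19, −0.22 and −0.44 in the 21A mice. Ctsz, a carboxypeptidase of the cathepsin family, had 8.37, 7.999, 15.1, 24.9 and 39.9 CPM in GFP+ libraries, against 5.56, 5.67, 33.8, 60.6 and 77.1 CPM in GFP− libraries. It was higher in GFP+ cells of both 17C mice and lower in those of all 3 21A mice, and every 21A library had a higher level than every 17C library. The fold change over 5 mice was −0.4995 ± 0.34 (edgeR adjusted p = 0.546). Ctsa, a peptidase that also protects other lysosomal enzymes from degradation, had 62.5, 70.7, 68.3, 80.5 and 42.3 CPM in GFP+ libraries, against 54.4, 39.8, 43.3, 67.8 and 60.4 CPM in GFP− libraries. It was higher in GFP+ cells of 4 mice and lower in 21A7, with a fold change of 0.29 ± 0.25 (edgeR adjusted p = 0.647). Gaa, which breaks down glycogen in the lysosome, had 24.7, 35.3, 72.95, 88.2 and 36.0 CPM in GFP+ libraries, against 61.7, 66.1, 53.2, 52.5 and 36.5 CPM in GFP− libraries. The GFP+ library was the lower one in both 17C mice and the higher one in 21A4 and 21A5, and the fold change over 5 mice was −0.20 ± 0.34 (edgeR adjusted p = 0.832). The proteases Ctsb, Ctsd and Ctsl and the beta-hexosaminidase subunit Hexa had fold changes of 0.17, −0.14, 0.0058 and 0.072, with ratios per mouse between −0.73 and 1.03.

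All 3 transcription factors had fold changes below 0, with a median of −0.64, and 0 passed. Mitf, the family member best known from pigment cells, had 15.1, 16.9, 16.7, 11.5 and 5.98 CPM in GFP+ libraries, against 40.1, 41.3, 19.9, 10.2 and 8.12 CPM in GFP− libraries. It was lower in GFP+ cells of 4 mice, most in the 17C mice, and slightly higher in 21A5. The fold change was −0.645 ± 0.28 (edgeR adjusted p = 0.327). With the summed macrophage markers as a covariate it fell by 1.29 (edgeR adjusted p = 0.0394), in a fit where 420 of all genes passed. Tfeb, which moves into the nucleus and switches on lysosomal genes when mTORC1 is inactive, had 2.61, 8.19, 4.84, 8.403 and 6.72 CPM in GFP+ libraries, against 11.9, 9.45, 11.2, 7.04 and 6.94 CPM in GFP− libraries. The lower GFP+ level of 17C1 and 21A4, which rested on 24 and 61 counts, made up most of the difference. The groups overlapped, with a fold change of −0.64 ± 0.395 (edgeR adjusted p = 0.494). Tfe3, which shares this role, had opposite ratios in the 2 17C mice (1.33 in 17C1 and −1.65 in 17C2), from as few as 24 counts, and a fold change of −0.049. TFEB and its relatives are controlled largely by phosphorylation and localisation, which transcript counts do not measure.

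Among 6 genes that start and extend the autophagosome membrane, 0 passed and the median was 0.26. Ulk1, the kinase that starts autophagosome formation, had 11.9, 22.3, 34.97, 28.9 and 19.9 CPM in GFP+ libraries, against 38.5, 43.9, 36.8, 30.4 and 19.2 CPM in GFP− libraries. The GFP+ library was far lower in both 17C mice, while the log2 ratio of the 21A mice stayed between −0.0745 and 0.047. Over 5 mice the fold change was −0.54 ± 0.30 (edgeR adjusted p = 0.443). Becn1, part of the lipid kinase complex that marks the growing membrane, had 17.6, 19.6, 14.0, 14.1 and 13.1 CPM in GFP+ libraries, against 12.7, 7.56, 14.5, 12.9 and 10.97 CPM in GFP− libraries. It was higher in GFP+ cells of 4 mice, most in 17C2, and the fold change was 0.43 ± 0.26 (edgeR adjusted p = 0.486). Of its annotated exon sequence 43.9% overlaps Cntd1 on the other strand, so its counts are uncertain. Wipi1, which reads the lipid mark, Atg7, the activating enzyme of the conjugation step, and Atg5 and Atg12, which are joined in that step, had fold changes of 0.24, 0.44, −0.14 and 0.28, each with mice on both sides of 0.

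Of the 3 mitophagy genes 0 passed and the median was −0.11. Pink1, a kinase that collects on damaged mitochondria and recruits Parkin, had 30.2, 56.9, 77.1, 68.9 and 28.6 CPM in GFP+ libraries, against 155, 146, 122.7, 78.8 and 18.1 CPM in GFP− libraries. It was lower in GFP+ cells of 4 mice, by a log2 ratio of −2.36 in 17C1 and −1.36 in 17C2, and higher in those of 21A7, with a fold change of −0.78 ± 0.42 (edgeR adjusted p = 0.426). Bnip3l, a mitophagy receptor of the outer mitochondrial membrane, had 29.5, 24.2, 19.0, 20.6 and 19.3 CPM in GFP+ libraries, against 19.0, 21.1, 14.6, 22.0 and 20.9 CPM in GFP− libraries. The values of the groups lay close together and the fold change was 0.20 ± 0.21 (edgeR adjusted p = 0.707). Bnip3l has an annotated pseudogene copy. Fundc1, another such receptor, had a fold change of −0.11 and its lowest value, 1.49 CPM from 14 counts, in the GFP+ library of 21A7.

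The change in GFP+ against GFP− cells differed between the 2 series of mice for 5 of the 35 genes: Ctsz, Gaa, Map1lc3a, Ulk1 and Pink1. This was a test of the difference itself (interaction of group and series, edgeR with the mouse as a block), which 923 of 12115 genes passed (7.62%). The difference, 17C minus 21A on the log2 scale, was 1.68 for Ctsz (edgeR adjusted p = 0.0259), −1.51 for Gaa (0.0367) and −2.32 for Map1lc3a (0.0291). It was −1.30 for Ulk1 (edgeR adjusted p = 0.0491) and −1.78 for Pink1 (0.0487). Ctsz was relatively higher in GFP+ cells of the 17C mice, and the other 4 genes were relatively lower there. Leaving out a mouse changed the calls among the 35 genes and among all genes. Without mouse 17C1 0 of the 35 passed (0 of all genes), without 21A5 0 (1 of all genes) and without 21A4 Map1lc3a alone (349 of all genes). Without 21A7 Ctsz, Gaa and Map1lc3a passed (587 of all genes), and without 17C2 Ctsz, Map1lc3a, Pink1, Ulk1 and Atp6v1a did (1035 of all genes). With DESeq2 all 5 passed again (1936 of all genes), and with limma voom all but Ctsz did (973). None of the 35 passed without the block (0 of all genes), with library totals in place of TMM scaling (473) or with the macrophage markers as a covariate (19). When libraries were scaled to the cardiomyocyte markers, whose sum differed between the series as given above, the calls of Gaa, Map1lc3a, Ulk1 and Pink1 were lost and Ctsz passed, among 19 of the 35 genes and 5065 of all genes.

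**Figure D3:**
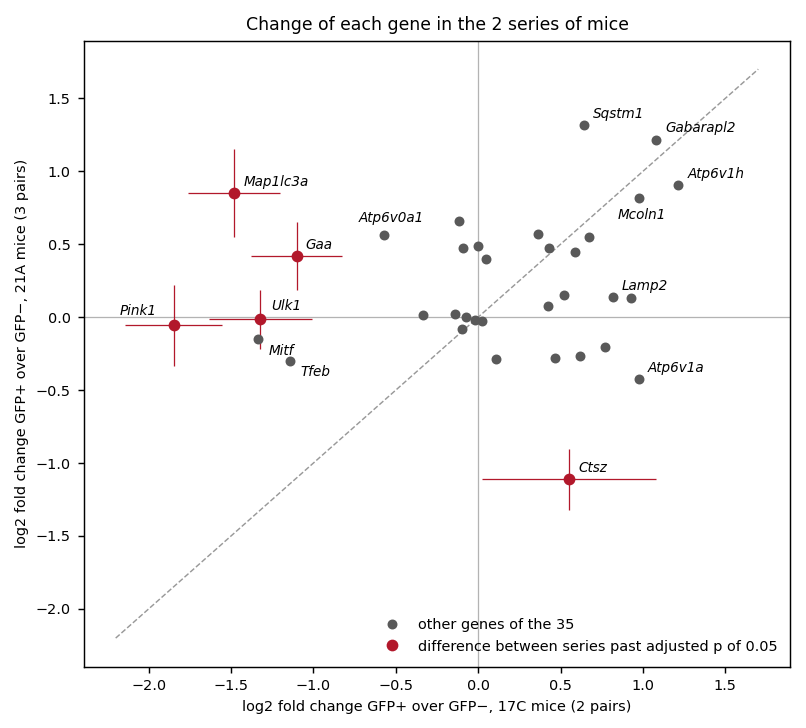
Log2 fold change, GFP+ over GFP−, fitted in the 17C mice alone (x axis, 2 pairs) and in the 21A mice alone (y axis, 3 pairs), with 1 point per gene. The dashed line marks equal change, and the 5 red points, with bars of 1 SE in each direction, are the genes whose change differed between the series; 4 lie left of 0 at −1.10 to −1.85 in the 17C mice, and Ctsz lies at −1.11 in the 21A mice.

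Within the 17C mice, where the fit has 1 residual degree of freedom, 5 of the 35 genes passed as lower in GFP+ libraries, against 7.52% of all genes. Their log2 fold changes there were −1.10 ± 0.27 for Gaa, −1.48 ± 0.28 for Map1lc3a, −1.34 ± 0.30 for Mitf, −1.85 ± 0.29 for Pink1 and −1.32 ± 0.31 for Ulk1 (edgeR adjusted p = 0.000119 to 0.00843). In the same mice 3 passed as higher, against 6.08% of all genes. Atp6v1h rose by 1.22 ± 0.37, Gabarapl2 by 1.08 ± 0.35 and Lamp2 by 0.82 ± 0.26 (edgeR adjusted p = 0.0294 to 0.0419). Within the 21A mice 1 gene passed as lower, against 4.05% of all genes, which was Ctsz (−1.11 ± 0.21, edgeR adjusted p = 0.0170). There Gabarapl2 rose by 1.22 ± 0.26 and Sqstm1 by 1.32 ± 0.27 (edgeR adjusted p = 0.0244 and 0.0226), where 2.67% of all genes passed as higher. Neither Mcoln1 (0.98 among 17C mice, 0.82 among 21A mice) nor Atp6v1e1 (0.68 and 0.55) passed in a single series (edgeR adjusted p = 0.133 to 0.173). Gabarapl2 was thus the only one of the 35 called in both series, with the same sign. The libraries of each series are among those of the fit over 5 mice, so these are not independent checks of it.

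Of the 35 genes, Ctsa, Ctsb, Ctsd, Ctsl, Ctsz, Hexa and Lamp1 are known to be abundant in macrophages. Their median log2 ratio was 0.41 and 0.51 in the 17C mice and 0.19, −0.22 and −0.51 in the 21A mice. The summed macrophage markers were at 24.8 to 47.7 CPM in GFP+ and 31.7 to 38.6 CPM in GFP− libraries of the 17C mice, and at 86.4 to 378.1 CPM in GFP+ and 372.4 to 864.8 CPM in GFP− libraries of the 21A mice. In the 21A mice the GFP+ library had the lower marker sum in 3 of 3 pairs, and Ctsz and Hexa were lower in GFP+ cells of each of these mice. Ctsa, Ctsd and Lamp1 were higher there in 21A4 and 21A5 and lower in 21A7. Ctsb and Ctsl were higher in 21A4 and lower in 21A5 and 21A7. The part of macrophage RNA in these values was not tested beyond a fit with the marker sum as a covariate, in which Ctsz had a fold change of 0.35 (edgeR adjusted p = 0.529) in place of −0.4995. Over the 5 mice 1 of the 15 macrophage markers passed, C1qc, which fell by 1.91 (edgeR adjusted p = 0.0480). In the 21A mice alone 13 of 15 passed, all lower in GFP+ libraries. Adgre1 and Cx3cr1 were also below 0 there (−1.26 and −0.90) but did not pass. In the 17C mice alone 0 of the 9 that could be tested passed. The 28 other genes had a median of 0.22, with 17 above 0 and 11 below.

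**Figure D4:**
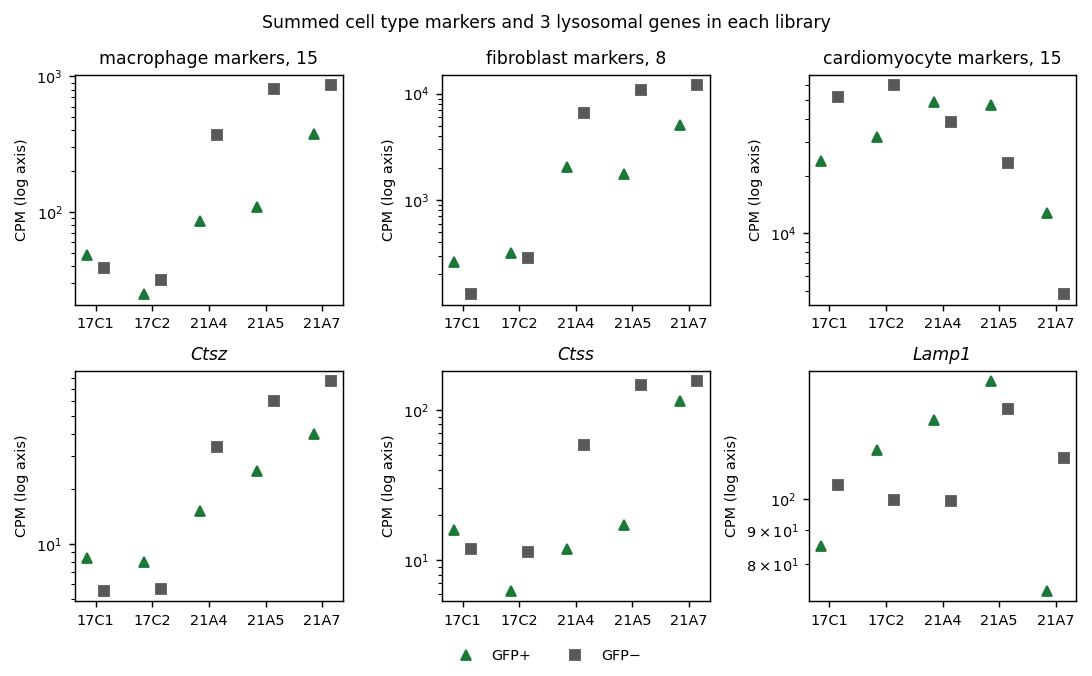
Summed CPM of macrophage, fibroblast and cardiomyocyte markers and CPM of Ctsz, Ctss and Lamp1 (y axes, logarithmic) in each library, by mouse (x axis), with green triangles for GFP+ and grey squares for GFP− libraries. Ctsz and Ctss stand highest in the GFP+ library of 21A7 and the GFP− libraries of 21A4, 21A5 and 21A7, the 4 libraries with the highest macrophage sums.

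Lists of other genes of the same pathways held 134 genes, of which 127 were tested. Over the 5 mice, where 0.858% of all genes passed, 1 of the 127 did. This was Laptm4b, a transmembrane protein of late endosomes and lysosomes, with 56.2, 51.8, 28.6, 32.1 and 40.6 CPM in GFP+ libraries, against 17.3, 22.2, 13.1, 10.9 and 20.9 CPM in GFP− libraries. Every GFP+ library lay above every GFP− library, which held for 3 of the 127 genes, against 1.54% of all genes. For 0 of the 127 every GFP+ library lay below, against 0.916% of all genes. Laptm4b rose by 1.31 ± 0.21 (edgeR adjusted p = 0.0376), and by 1.47 in 17C mice alone and 1.23 in 21A mice alone (edgeR adjusted p = 0.000992 and 0.0154). The call was lost without pairing (edgeR adjusted p = 0.151), where 10 of all genes passed. It was lost without mouse 17C2 (edgeR adjusted p = 0.139), 21A4 (0.242), 21A5 (0.167) or 21A7 (0.0518). In these 4 fits 0, 1, 6 and 71 of all genes passed. The fold change was 1.23 to 1.40 each time. The call was also lost with library totals in place of TMM scaling (0.28, edgeR adjusted p = 0.821), where 33 of all genes passed. With scaling to the cardiomyocyte markers, where 0 of all genes passed, it was lost too (1.16, edgeR adjusted p = 0.862). Of the 127 genes, 73 had fold changes above 0 and 54 below, with a median of 0.0985. The GFP+ library was the higher one in 5 of 5 mice for 16 of the 127 genes, against 9.14% of all genes, and the lower one for 11, against 8.02%.

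Among 12 other V-ATPase genes 11 fold changes were above 0, with a median of 0.40, and 0 passed (1 higher and 1 lower at an unadjusted p under 0.05). Atp6v0b, a subunit of the V0 ring, had the smallest p, with 28.9, 21.5, 9.75, 12.7 and 6.62 CPM in GFP+ libraries, against 12.8, 9.999, 3.86, 6.37 and 7.25 CPM in GFP− libraries, and a fold change of 0.91 ± 0.27 (edgeR adjusted p = 0.179). Its GFP+ library was the higher one in 4 mice and the lower one in 21A7. The exception below 0 was Tcirg1, a V0 subunit known from osteoclasts and macrophages, named after its values were seen (−1.24, edgeR adjusted p = 0.180). Of 36 other hydrolases 25 were below 0, with a median of −0.29, and 0 passed (0 higher and 9 lower at an unadjusted p under 0.05, against 7.74% and 7.59% of all genes). Fitted by series, the group had a median of 0.0735 and 20 of 34 genes above 0 in the 17C mice. In the 21A mice the median was −0.59 and 31 of 36 were below 0. The macrophage and fibroblast marker sums were also lower in GFP+ libraries of the 21A mice, and the part of such cells in these hydrolase values was not tested. Idua, which breaks down glycosaminoglycans, had 2.28, 3.52, 6.42, 3.12 and 1.28 CPM in GFP+ libraries, against 8.85, 7.56, 8.11, 7.12 and 5.42 CPM in GFP− libraries, and a fold change of −1.31 ± 0.36 (edgeR adjusted p = 0.150). In each mouse Idua was lower in GFP+ cells, and only the GFP+ library of 21A4 reached into the range of the GFP− libraries. The macrophage-rich cathepsins Ctss and Ctsc, also named after their values were seen, were at −1.24 each over 5 mice without passing (edgeR adjusted p = 0.296 and 0.311). In the 21A mice alone both fell (−1.93 and −2.002, edgeR adjusted p = 0.0388 and 0.0355).

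In the remaining lists 0 genes passed beside Laptm4b, with medians of 0.12 (15 membrane genes), 0.0985 (15 genes of nutrient sensing and TFEB control), 0.16 (38 autophagosome genes) and 0.099 (11 mitophagy genes). Ncoa4, the receptor that takes ferritin into autophagosomes, had 23.9, 28.1, 21.7, 22.4 and 29.0 CPM in GFP+ libraries, against 10.9, 12.5, 12.8, 16.9 and 21.2 CPM in GFP− libraries. Every GFP+ library was above every GFP− library, and the fold change was 0.78 ± 0.21 (edgeR adjusted p = 0.148). Fkbp8, a mitochondrial protein that acts as a mitophagy receptor, had 66.9, 60.9, 57.7, 61.99 and 43.0 CPM in GFP+ libraries, against 41.8, 37.5, 24.8, 29.2 and 33.1 CPM in GFP− libraries. Here too the groups did not overlap, with a fold change of 0.81 ± 0.21 (edgeR adjusted p = 0.1375). Cd63, a tetraspanin of late endosomes, was at 1.08 ± 0.35 (edgeR adjusted p = 0.200). It rose by 1.995 in the 17C mice alone (edgeR adjusted p = 1.86e-05) and was at 0.49 in the 21A mice alone (0.260). The difference between the series was 1.51 (edgeR interaction, adjusted p = 0.0403), a test that 7.62% of all genes passed. Lamtor3, part of the complex that anchors mTORC1 at the lysosome, was at 0.71 ± 0.21 (edgeR adjusted p = 0.173), with the GFP+ library the higher one in every mouse.

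**Figure D5:**
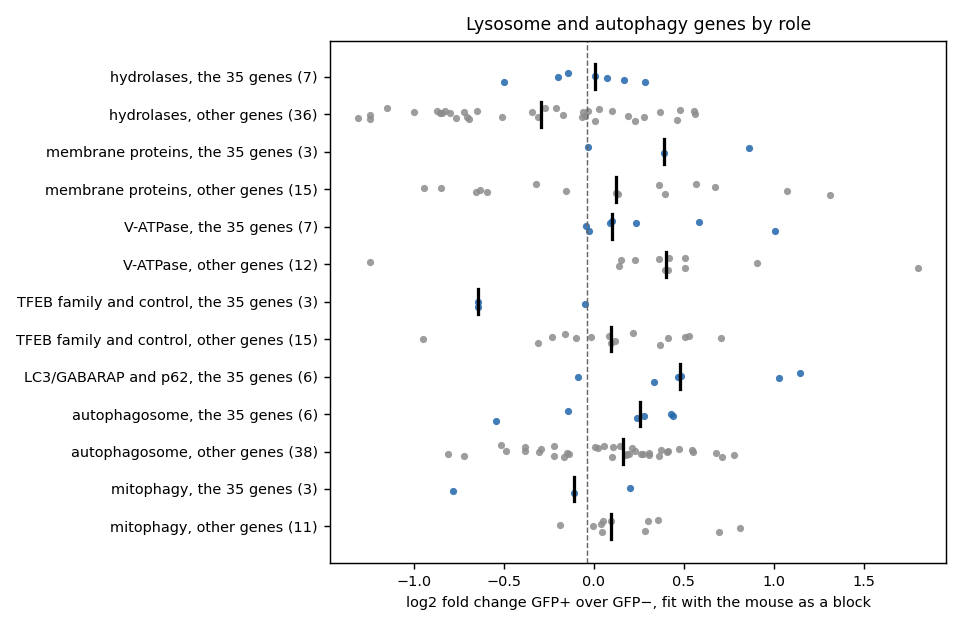
Log2 fold change, GFP+ over GFP− with the mouse as a block (x axis), of the 35 genes (blue) and the 127 other tested pathway genes (grey), by role (y axis, number of genes in brackets), with black bars for medians and a dashed line at the median of all tested genes, −0.038. Other hydrolases lie mostly left of the line (median −0.29) and other V-ATPase genes mostly right of it (median 0.40).

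Levels between genes were compared as CPM per kilobase of exon sequence. In GFP+ libraries Sqstm1 was the highest of the 35 genes at 107.4 ± 35.5 CPM per kilobase (SD, n = 5), followed by Ctsd (73.9 ± 24.96), Map1lc3a (68.3 ± 23.5) and Ctsb (52.6 ± 15.2). In GFP− libraries Map1lc3a was highest at 100.1 ± 75.9 CPM per kilobase, followed by Ctsd (80.05 ± 20.3), Sqstm1 (54.8 ± 27.6) and Ctsb (52.6 ± 30.6). Neighbours in either order overlapped within 1 SD. Atg12 was the lowest in both, at 0.915 ± 0.21 in GFP+ and 0.76 ± 0.198 CPM per kilobase in GFP− libraries. The transcription factors Tfeb and Tfe3 were also low, at 1.09 and 0.97 in GFP+ and 1.64 and 0.995 CPM per kilobase in GFP− libraries. By the annotation 14 of the 35 genes share exon sequence with another gene, and 8 share more than 10%: Ctsa, Ctsb, Ctsd, Ctsl, Hexa, Gabarapl1, Sqstm1 and Becn1. Ctsd shares sequence with a gene on its own strand, Ctsl with genes on both strands, and the others of these 8 with genes on the other strand. The library kit does not mark strand, and the strand setting of the counting is not given in the sources used here. The counts of these 8 are thus uncertain.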

How the data were processed

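RNA of sorted cells was sequenced in 10 libraries. Per the labels' protocols, RNA was amplified with SMARTer chemistry, and Nextera XT libraries were made from the cDNA. This marks neither strand nor molecules, so PCR copies count as reads. The authors deposited 1 table of raw read counts, whole numbers with no normalization, with a row per gene. The build GRCm39 and the tools featureCounts, Subread 2.0.1, STAR 2.7.9a and fastp 0.23.1 are named in the submitters' processing notes. The sources used here give neither the annotation nor the strand setting. 0 pairs of libraries were identical.

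The test was the two-sided quasi-likelihood F-test of edgeR 4.0.16 (R 4.3.3) with the mouse as a block, on TMM-scaled counts of the 12115 genes kept by filterByExpr, at a Benjamini-Hochberg adjusted p under 0.05. The pairing comes from the animal identifiers in the titles. How each library departs from its group's mean was correlated, over genes, between the 2 libraries of a mouse. The r was 0.0741 for 21A5 and 0.161, 0.292, 0.397 and 0.637 for 21A4, 17C1, 17C2 and 21A7. Libraries of different mice were not correlated in this way, so these values cannot test the pairing. SE was taken as the size of the log2 fold change over the root of F. CPM uses TMM-scaled library sizes, and log2 ratios per mouse a prior count of 2. The series difference was fitted as an interaction. The fits were tested on simulated counts, but only with changes larger than any fitted for the 35 genes over the 5 mice. The simulation therefore cannot show how well changes as small as theirs are detected. Total counts of 12244373 to 38879965 per library, much of them mitochondrial, set the precision for low genes.

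The 35 genes and the lists were chosen with earlier results of these data known. Genes were given in full if they passed in the fit with or without the block or in the interaction, or had 1 of the 2 smallest p in their role. For other pathway genes these were the calls and the smallest p not passing in each list. Alternatives were the unpaired fit, DESeq2 1.42.0, limma 3.58.1 voom, other scalings and filters, removal of mitochondrial genes, a macrophage covariate, each series alone and each mouse left out. Exon lengths and overlaps come from GENCODE M21 (GRCm38) and promoters from RefSeq (GRCm38.p6), both of an earlier build than the counts and joined by symbol. Of 223 listed symbols 222 were found in the table.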

Additional observations from a re-analysis of the deposited data

Results flagged for a closer look

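For 5 genes the change in GFP+ against GFP− cells differed between the 2 series of mice by the interaction test (edgeR). The difference, 17C minus 21A, was 1.68 for Ctsz, −1.51 for Gaa, −2.32 for Map1lc3a, −1.30 for Ulk1 and −1.78 for Pink1. In the GFP− libraries the summed cardiomyocyte markers were 52140 and 59930 CPM in the 17C mice and 4811 to 38380 CPM in the 21A mice, and the part of this in the differences was not tested. Across 70 groups of 5 libraries, 2 had a library far from the others, and chance flags about 1 in 20 groups. For Fundc1 the GFP+ library of 21A7 was at 1.49 CPM, the next lowest at 6.74, and the gap took 0.756 of the range on the log2 scale. For Atp6v0d1 the GFP− library of 21A4 was at 11.9 CPM, the next lowest at 16.4, and the gap took 0.738 of the range.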

How the results depend on the processing

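Depth limits low genes, with as few as 14 counts (Fundc1) in a library. Calls among the 35 genes, all tested genes and the other pathway genes were 3, 895 and 9 with DESeq2, 5, 1163 and 12 with limma voom, 2, 818 and 4 without a filter on low counts, and 1, 420 and 3 with the macrophage covariate. They were 8, 1510 and 12 in the 17C mice alone and 3, 889 and 8 in the 21A mice alone. With a filter of 5 CPM in 5 libraries 1 of the 35, 122 of all genes and 1 of the other pathway genes passed. Without the replicate block 10 of all genes and 0 other pathway genes passed, with library totals 33 and 0, and with cardiomyocyte-marker scaling 0 and 0. When 1 mouse was left out, 0 to 1 of the 35, 0 to 173 of all and 0 to 1 other pathway genes passed. The series difference was called for 6 of the 35 with DESeq2 (1936 of all genes) and for 5 with limma voom (973), which lost Ctsz and gained Atp6v0a1. It was called for 6 without a filter on low counts (1733), 5 with the filter of 5 CPM (978) and 4 without mitochondrial genes (950). With DESeq2 size factors it was called for 3 (862). Cardiomyocyte-marker scaling gave 19 calls (5065), which kept Ctsz but not Gaa, Map1lc3a, Ulk1 or Pink1. It was called for 0 without the block (0), with library totals (473) or with the macrophage covariate (19), and for 0 to 5 when 1 mouse was left out (0 to 1035).

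The median of all genes was −1.15 with library totals, −0.22 with cardiomyocyte-marker scaling and −0.23 unfiltered. With library totals the sign reversed for Ctsa (−0.69), Lamp2 (−0.67), Mcoln1 (−0.12), Atp6v1e1 (−0.47), Atp6v1h (−0.036), Sqstm1 (−0.011), Becn1 (−0.67) and Bnip3l (−0.85), all above that median. Ctsz was at 0.35 with the macrophage covariate and 0.55 in the 17C mice. Gaa was at 0.42 in the 21A mice and 0.086 without 17C1. Map1lc3a was at 0.067 with limma voom and 0.85 in the 21A mice, and when 1 mouse was left out between −0.53 (without 21A7) and 0.37 (without 17C1), with 0.21 without 17C2. Gabarapl2, Tfeb, Mitf, Ulk1 and Pink1 kept their sign under all 17 alternatives. Apart from the restriction to fewer mice, the cause was not tested.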
